A study of Homo sapiens with 4 samples.

Results

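The genes described here are 107 expressed long intergenic noncoding RNAs (lincRNAs) of A2780 cells. They were chosen from 57773 genes in the deposited tables. A gene was taken where its biotype was lincRNA, where its entry listed exons, and where its exon reads summed over all 4 libraries came to 200 or more. MALAT1, NEAT1, GAS5, ZFAS1 and genes named SNHG were left out, which removed 4 of the 111 lincRNA genes that reached the minimum. The tables hold 7109 lincRNA genes, of which 6046 list exons and 1431 had at least 1 exon read. The minimum used the sum over both treatments, so the level of the members is a result of their choice and is given as a description. The lowest members were CTD-2036P10.3 with 206 summed reads, AC022007.5 with 203 and RP11-14N7.2 with 202. The genes just outside were RP11-204M4.2 with 195, RP11-54O7.1 with 192 and RP11-122G18.5 with 190.

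A2780 is an established human ovarian adenocarcinoma line, and all 4 samples are labelled WT. The question of the study is whether the flavone wogonin restrains tumour cell growth by way of DNA demethylation. The wogonin group holds libraries 3 and 4 from cells given 10 ug/mL for 48 h, and the DMSO group holds libraries 1 and 2 from cells given the vehicle, with no time stated. RNA was sequenced with a SMARTER kit for mRNA, and the labels do not state that a group's libraries are separate cultures, so the p-values rest on a spread that may be technical.

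LincRNAs are transcripts longer than most small RNAs that carry no long open reading frame and lie, by definition, outside protein-coding genes. Many are capped, spliced and polyadenylated like messenger RNA, but they are often less efficiently spliced, kept in the nucleus and removed by the nuclear exosome. Some act at their own locus, as XIST does when it coats and silences an X chromosome, some are hosts of microRNAs, and others start back to back with a coding gene at a shared promoter. For most clone-named members no function is known.

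The libraries held 11005921 and 11287570 exon reads in wogonin 3 and 4, against 11478731 and 11839562 in DMSO 1 and 2. Reads of mitochondrial genes were 1.67 and 3.03% of exon reads in wogonin 3 and 4, against 1.65 and 1.45% in DMSO. Intron reads took 7.96 and 5.61% of gene reads in wogonin 3 and 4, against 5.26 and 5.29% in DMSO. Wogonin 4 thus stands apart in mitochondrial reads and wogonin 3 in intron reads. Of 17 marker genes, 16 were found in the tables. Among the markers of the line, VIM stood between 7567 and 8754 TPM, while EPCAM, PAX8, WT1, KRT7, KRT8, KRT18, KRT19, CDH1 and MUC16 did not pass 1.26 TPM in any library, so the epithelial ovarian markers were near or at 0. PTPRC, CD3E and CDH5, markers of immune and endothelial cells, were at 0 in all 4 libraries, and CD68 stood between 26.3 and 40.9 TPM. Of the fibroblast markers, COL1A1 had 2.88 and 2.91 TPM in wogonin 3 and 4, against 5.56 and 4.59 TPM in DMSO 1 and 2. DCN stood between 0.55 and 1.00 TPM. In bulk RNA, fewer cells that express a gene and less of its RNA per cell cannot be told apart.

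The members with the clearest link to a small RNA are the hosts of microRNAs, short RNAs that repress messenger RNAs through their seed (bases 2 to 8). The main mature sequences that lie within the bodies of the 4 hosts called between the groups are shown first. They are RefSeq sequences of build GRCh38.p14, written 5′ to 3′, with the seed in capitals. MicroRNAs themselves were not measured. MIR137HG, which fell after wogonin, holds miR-137 and miR-2682 on the minus strand of chromosome 1. MIR22HG, which rose, holds miR-22 on the minus strand of chromosome 17. MIR4435-1HG and LINC00152, which both rose, are near-identical copies on chromosome 2 and hold the same miR-4435, on the minus strand in MIR4435-1HG and on the plus strand in LINC00152. No seed is shared between different microRNAs of this set.
hsa-miR-137-3p: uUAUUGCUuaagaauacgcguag
hsa-miR-137-5p: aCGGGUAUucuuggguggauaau
hsa-miR-2682-5p: cAGGCAGUgacuguucagacguc
hsa-miR-22-3p: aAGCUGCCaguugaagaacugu
hsa-miR-22-5p: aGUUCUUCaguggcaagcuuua
hsa-miR-4435: aUGGCCAGagcucacacagagg

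The next sequences are the promoters of 4 members that start back to back with a protein-coding gene, and of the member with the largest fall. The study is about DNA methylation, which acts on CpG sites, so every CpG is in capitals. Each window runs from 250 bases before to 50 bases after the start in RefSeq (GRCh38.p14), on the strand of the lincRNA, 5′ to 3′. The window of CTA-217C2.1 is chr22:45163732-45164031 on the minus strand and has 43 CpG sites. That of SRP14-AS1 is chr15:40039061-40039360 on the plus strand, with 26. That of RP11-110I1.12 is chr11:118997953-118998252 on the minus strand, with 30. That of CTD-2037K23.2 is chr5:78360492-78360791 on the minus strand, with 41. That of RP5-899B16.1 is chr6:139854600-139854899 on the plus strand and has 0 CpG sites. CpG-rich and CpG-free starts thus both occur among the members that moved most.
CTA-217C2.1: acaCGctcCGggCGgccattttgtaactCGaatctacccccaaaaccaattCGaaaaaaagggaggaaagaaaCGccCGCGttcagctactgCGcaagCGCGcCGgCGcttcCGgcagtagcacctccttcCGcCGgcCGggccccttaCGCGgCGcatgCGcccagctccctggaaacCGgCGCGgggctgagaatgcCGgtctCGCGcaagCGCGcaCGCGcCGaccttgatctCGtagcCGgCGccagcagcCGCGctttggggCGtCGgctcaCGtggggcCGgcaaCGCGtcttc
SRP14-AS1: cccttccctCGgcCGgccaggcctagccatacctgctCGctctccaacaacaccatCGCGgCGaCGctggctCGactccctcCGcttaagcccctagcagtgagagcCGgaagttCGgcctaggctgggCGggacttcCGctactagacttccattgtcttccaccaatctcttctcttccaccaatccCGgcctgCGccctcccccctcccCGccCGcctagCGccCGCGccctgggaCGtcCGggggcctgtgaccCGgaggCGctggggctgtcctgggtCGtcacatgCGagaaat
RP11-110I1.12: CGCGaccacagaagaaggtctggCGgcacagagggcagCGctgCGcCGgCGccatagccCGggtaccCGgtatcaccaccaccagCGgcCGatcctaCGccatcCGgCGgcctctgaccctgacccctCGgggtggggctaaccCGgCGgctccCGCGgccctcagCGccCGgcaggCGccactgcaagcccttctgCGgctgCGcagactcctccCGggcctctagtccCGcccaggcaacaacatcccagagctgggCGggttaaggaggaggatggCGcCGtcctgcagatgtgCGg
CTD-2037K23.2: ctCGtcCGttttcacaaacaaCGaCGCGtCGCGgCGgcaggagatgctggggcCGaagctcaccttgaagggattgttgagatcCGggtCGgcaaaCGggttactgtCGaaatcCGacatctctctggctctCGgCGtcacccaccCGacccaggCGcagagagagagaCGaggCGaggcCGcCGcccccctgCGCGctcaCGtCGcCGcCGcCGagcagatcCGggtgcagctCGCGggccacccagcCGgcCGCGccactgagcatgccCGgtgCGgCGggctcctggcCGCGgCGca
RP5-899B16.1: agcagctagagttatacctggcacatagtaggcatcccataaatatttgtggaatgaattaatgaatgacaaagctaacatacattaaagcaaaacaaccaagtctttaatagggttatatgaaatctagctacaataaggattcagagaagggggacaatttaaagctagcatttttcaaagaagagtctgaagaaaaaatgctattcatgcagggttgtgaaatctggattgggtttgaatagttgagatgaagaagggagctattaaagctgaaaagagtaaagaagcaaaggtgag

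Of the 107 members, 26 rose and 46 fell after wogonin in total exon reads, and 35 did not pass the test. The test was edgeR's quasi-likelihood test fitted on all 13449 genes that passed its filter, with Benjamini-Hochberg adjusted p under 0.05, and all 107 members passed the filter. The 72 called members are 67.3% of the list, against 63.8% of all genes tested, so the share called is near the background. The split differs in value: 24.3% of the members rose, against 32.3% of all genes, and 43.0% fell, against 31.5% of all genes. Of the protein-coding genes tested, 65.2% were called, 33.2% higher and 32% lower. A further set was 2606 genes outside the list, with reads in the range from the lowest member to the members' upper quartile. Of these, 60.2% were called, 20.4% higher and 39.8% lower. The members' own shares include members above that range, so the splits are not like for like. The members' median log2 fold change, wogonin over DMSO, was -0.15 (quartiles -0.88 and 0.34), against -0.00 over all genes (quartiles -0.46 and 0.40).

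The minimum on summed reads bears on this split. In 29 members one group had fewer than 100 summed reads, 24 of them in wogonin and 5 in DMSO, and such members reached the minimum mainly through the other group. Among the 78 members with 100 or more reads in each group, 22 rose and 25 fell, and their median log2 fold change was 0.03. Among the 59 members with 400 or more summed reads, 20 rose and 21 fell, with a median of 0.06. The requirement of 100 reads in each group itself takes out members that are low in wogonin, so these counts show how far the split depends on the minimum and nothing more. DESeq2, run beside edgeR, called 17 rises and 35 falls at the same threshold. The share of all genes that DESeq2 called was not computed, so these counts have no background beside them.

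Large changes were found in both directions. A log2 change of 1 or more, beside the adjusted p, was seen in 9 rises, 8.41% of the members against 6.31% of all genes, and in 21 falls, 19.6% against 9.94%. These shares are not like for like, because the minimum let in members through 1 group. Fewer than 100 summed reads were found in wogonin in 24 members and in DMSO in 5. The share of large changes among genes with similar reads was not computed. Groups did not overlap in 86 members, 80.4% against 81.9% of all genes tested. The log2 fold changes ran from -3.27 to 1.92. The median standard error (SE) was 0.18 among members and 0.10 over all genes, so a small change is harder to call among these members. The SE of genes with similar reads was not computed.

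**Figure D1:**
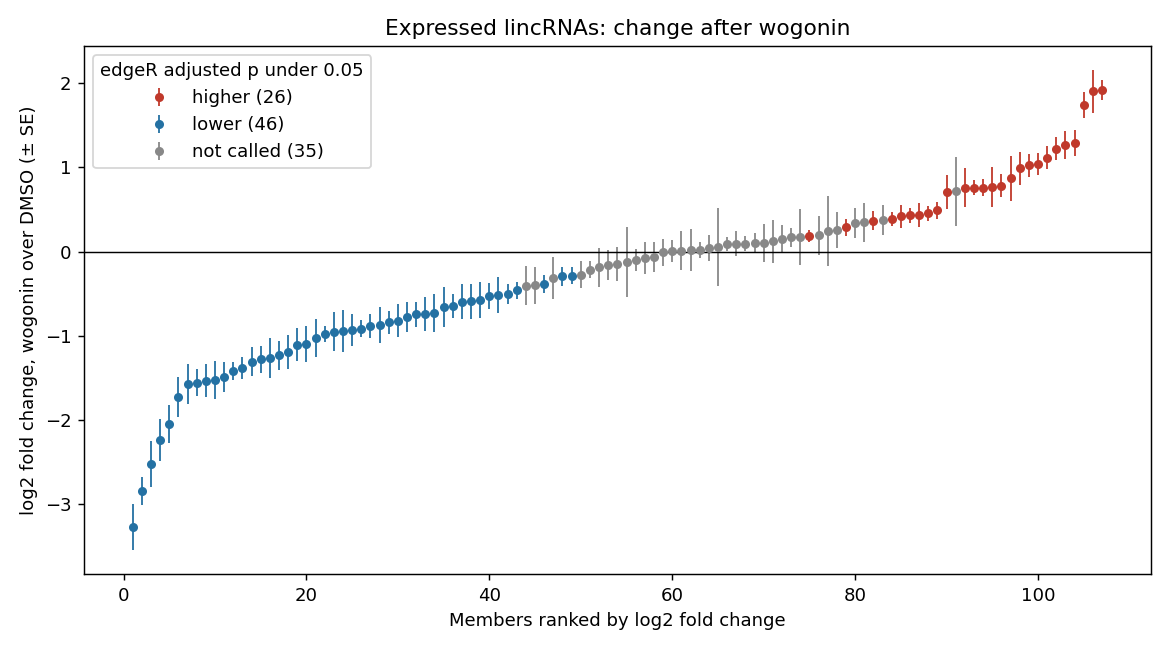
Log2 fold change, wogonin over DMSO, of the 107 lincRNAs ranked from the largest fall to the largest rise. Points are fitted values from 2 libraries a group, bars are 1 SE, and colours show the 26 higher, 46 lower and 35 not called by edgeR. The left tail reaches -3.27 and the right tail 1.92.

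Together the members took a small part of each library. They held 20942 and 20417 exon reads in wogonin 3 and 4, against 23327 and 24427 in DMSO 1 and 2. That is 0.190% (95% Wilson interval 0.188 to 0.193) and 0.181% (0.178 to 0.183) in wogonin 3 and 4, against 0.203% (0.201 to 0.206) and 0.206% (0.204 to 0.209) in DMSO 1 and 2. Both wogonin libraries lay below both DMSO libraries. The same exon reads chose the members, and fewer than 100 summed reads were found in wogonin in 24 members and in DMSO in 5. The lower share is thus a description. The intervals hold counting error and nothing else, because the tables count reads and no molecular identifiers are named. Per length, the members' mean TPM over the 4 libraries had a median of 18 and a range from 1.51 to 1088, and 75 members were over 10 TPM. The median of the 12159 protein-coding genes tested was 31.6 TPM. The summed reads of a member had a median of 430 and a maximum of 9223, and the 10 members with most reads held 38.2% of all member reads.

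The largest falls were at a pair of neighbouring loci on chromosome 6. RP5-899B16.1 (ENSG00000231426, chr6:140175987-140181288, plus strand, GRCh37), now named FILNC1 and known as a FoxO-induced transcript of energy stress in kidney cancer cells, stood at 0.746 and 1.20 CPM in wogonin 3 and 4, against 9.23 and 9.69 CPM in DMSO 1 and 2. CPM here are counts over the library total scaled by edgeR's TMM factors. Its log2 fold change was -3.27 (SE 0.27, edgeR adjusted p = 3.5e-08). Only 6.83% of its reads had a single place in the genome, so part of them may belong to similar sequences elsewhere.

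RP3-332B22.1 (ENSG00000236013, chr6:140388572-140414858), now LINC02941, lies 207284 bases from it on the same strand, and its function is not known. It averaged 4.35 ± 0.879 CPM in wogonin and 31.2 ± 4.66 CPM in DMSO (SD, n = 2 each), so that its log2 fold change was -2.84 (SE 0.17, edgeR adjusted p = 1.4e-09). All of its reads had a single place, so this count holds no shared reads. Its single libraries were at 3.73 and 4.97 CPM in wogonin, against 28.0 and 34.5 CPM in DMSO. The nearest protein-coding gene of both is CITED2, a co-regulator that binds CBP and p300, which lies 480230 bases from RP5-899B16.1. CITED2 fell as well, with 140 and 155 CPM in wogonin, against 631 and 582 CPM in DMSO (log2 fold change -2.04, edgeR adjusted p = 2.1e-12).

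Further falls past 2 log2 units were found at 3 clone-named members of unknown function. RP11-248N22.1 (chromosome 4) had 2.52 and 1.10 CPM in wogonin, against 10.9 and 9.94 CPM in DMSO, with 15.5% of its reads at a single place. RP11-540A21.2 (now LINC02709, chromosome 11) had 2.14 and 4.70 CPM in wogonin, against 15.1 and 17.2 CPM in DMSO. AF131217.1 (chromosome 21) had 2.61 and 2.30 CPM in wogonin, against 9.06 and 11.2 CPM in DMSO. In none of the 3 did the groups overlap, and their log2 fold changes were -2.52, -2.23 and -2.04. The next in size were RP11-89K21.1 at -1.72, RP11-348J24.2 at -1.57, LINC00501 at -1.55, RP11-110I1.12 at -1.53 and RP4-704D21.2 at -1.53. RP11-89K21.1, now LINC01833, lies 2564 bases from SIX3, a homeobox gene of forebrain and eye development, which had too few reads to be tested.

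**Figure D2:**
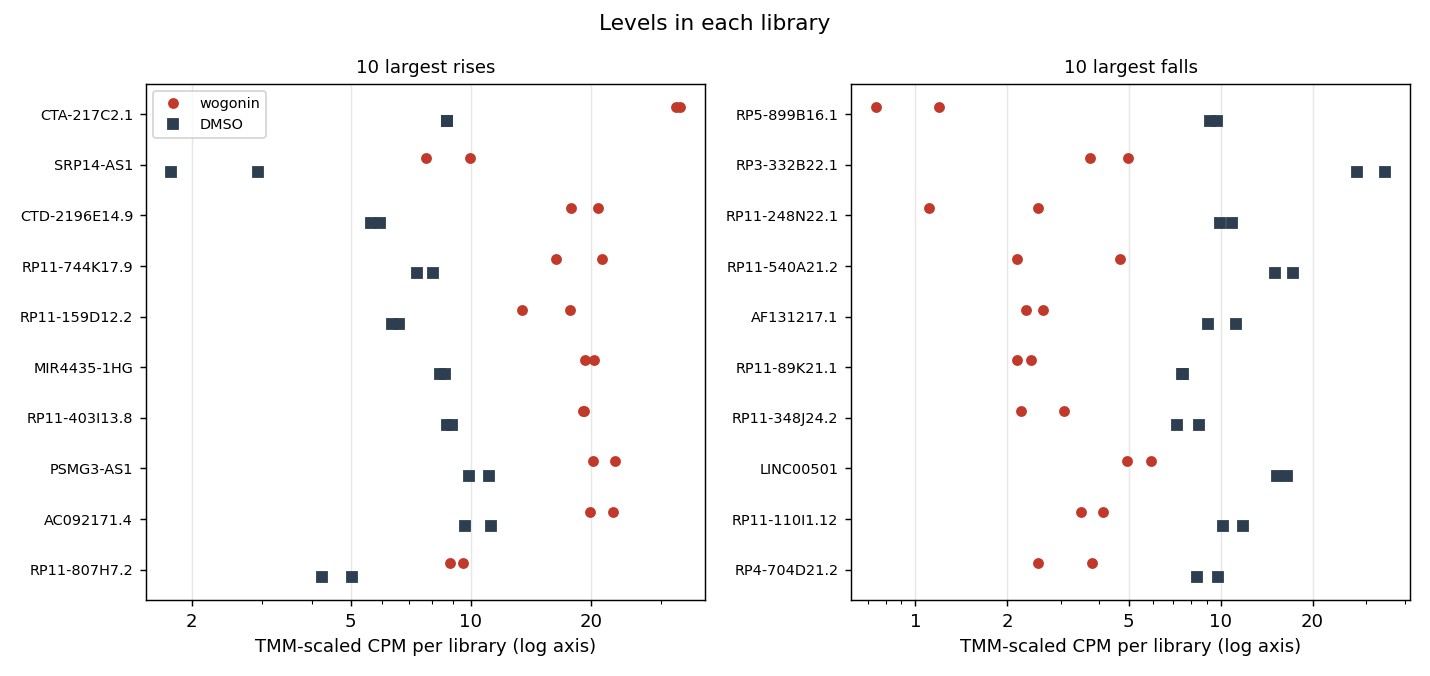
TMM-scaled CPM in each library (log axis) of the 10 largest rises, left, and the 10 largest falls, right, among called lincRNAs whose groups do not overlap. Circles are wogonin libraries and squares DMSO libraries. CTA-217C2.1 stands near 33 CPM in wogonin, and RP5-899B16.1 is lowest in wogonin, at 0.746 CPM.

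Among the rises, CTA-217C2.1 (ENSG00000226328, chr22:45528901-45559662, minus strand, GRCh37) was first. This member is now NUP50-DT, the divergent transcript of the nuclear pore gene NUP50. It had 33.4 and 32.7 CPM in wogonin 3 and 4, against 8.73 and 8.72 CPM in DMSO 1 and 2. Its log2 fold change was 1.92 (SE 0.12, edgeR adjusted p = 1.3e-09), and every read had a single place. SRP14-AS1 (ENSG00000248508, chr15:40331512-40359491), the divergent transcript of the gene for a subunit of the signal recognition particle, averaged 8.85 ± 1.58 CPM in wogonin and 2.36 ± 0.816 CPM in DMSO (SD, n = 2 each). Its log2 fold change was 1.90 (SE 0.25, edgeR adjusted p = 7.2e-06).

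CTD-2196E14.9 (chromosome 16), which a later annotation calls a transcript over the 3′ end of a gene, lies 137 bases from DCTN5 on the same strand. It had 20.8 and 17.9 CPM in wogonin, against 5.93 and 5.62 CPM in DMSO, a log2 fold change of 1.74. DCTN5, a dynactin subunit, had 72.4 and 72.1 CPM in wogonin, against 68.3 and 62.1 CPM in DMSO, and was not called (log2 fold change 0.15, edgeR adjusted p = 0.11). RP11-744K17.9 rose by 1.29, RP11-159D12.2 by 1.26, RP11-403I13.8 by 1.12, PSMG3-AS1 by 1.04, AC092171.4 by 1.03 and RP11-807H7.2 by 0.99 on the log2 scale. Of these, RP11-159D12.2 and AC092171.4 had 3.86 and 1.12% of reads at a single place, and their source is uncertain.

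The microRNA hosts moved in different directions. MIR137HG (ENSG00000225206, chr1:98453556-98515419, minus strand, GRCh37) hosts miR-137, a microRNA known for its roles in neurons and as a target of promoter methylation in tumours. It had 10.9 and 14.5 CPM in wogonin 3 and 4, against 32.4 and 33.7 CPM in DMSO 1 and 2, and its log2 fold change was -1.38 (SE 0.13, edgeR adjusted p = 1.2e-07). Its intron reads, 252 and 300 in wogonin against 659 and 718 in DMSO, fell as well (log2 fold change -1.56, edgeR adjusted p = 0.0012). The intron reads make up 64.3% of its gene reads, and 1.21% of its exon reads crossed a junction.

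MIR4435-1HG, now MIR4435-2HG and also known as MORRBID, a repressor of the pro-death gene BCL2L11 in myeloid cells, had 20.3 and 19.3 CPM in wogonin, against 8.39 and 8.64 CPM in DMSO. Its log2 fold change was 1.22 (SE 0.13, edgeR adjusted p = 8e-07). BCL2L11, its nearest protein-coding gene at 27903 bases, had 15.8 and 14.5 CPM in wogonin, against 33.0 and 35.8 CPM in DMSO (log2 fold change -1.18, edgeR adjusted p = 1.3e-07). LINC00152, now CYTOR, is the near-identical copy and is described as a growth-promoting RNA in many tumours. It had 18.1 and 16.0 CPM in wogonin, against 10.2 and 9.69 CPM in DMSO, and its log2 fold change was 0.78 (edgeR adjusted p = 1.2e-04). With uniquely placed reads alone the changes were 1.01 and 0.77, so both copies rose in reads that separate them.

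MIR22HG, host of miR-22 and often induced by stress, had 6.90 and 7.09 CPM in wogonin, against 4.24 and 4.32 CPM in DMSO. The groups did not overlap, and the log2 fold change was 0.71 (SE 0.20, edgeR adjusted p = 0.0063), but DESeq2 did not call it (adjusted p = 0.086). It overlaps WDR81 on the opposite strand, which rose (log2 fold change 0.95), and since the strand setting of the counts is not given, reads from the 2 genes cannot be told apart. LINC00969, which holds miR-570, had 18.4 and 13.4 CPM in wogonin, against 14.6 and 15.2 CPM in DMSO, and its groups overlapped. LINC00669, which holds miR-924 and miR-5583, had 5.22 and 5.89 CPM in wogonin, against 4.83 and 4.48 CPM in DMSO, and was not called (log2 fold change 0.26, edgeR adjusted p = 0.31).

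**Figure D3:**
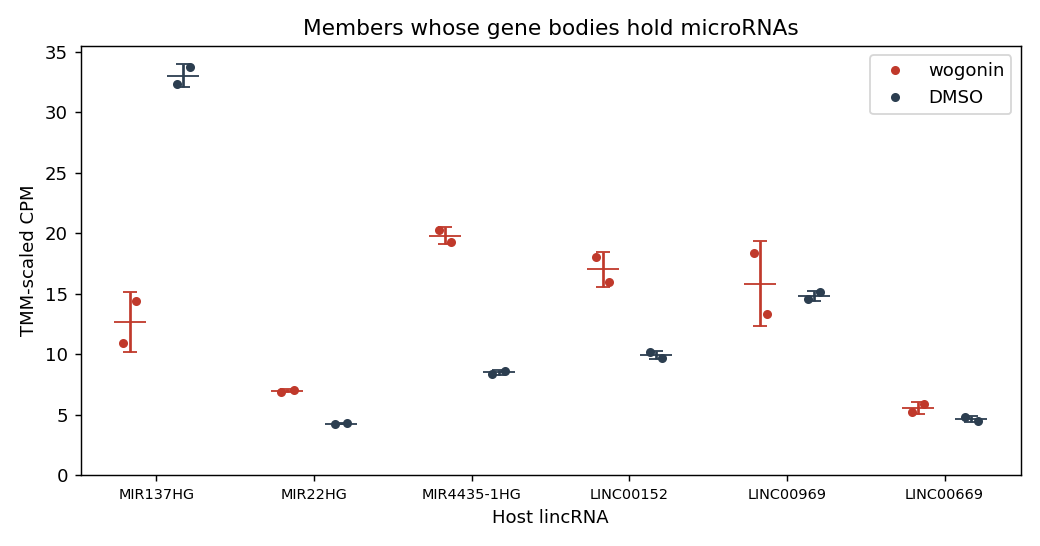
TMM-scaled CPM of the 6 lincRNAs whose gene bodies hold RefSeq microRNAs. Points are single libraries, wogonin left and DMSO right of each pair, and bars are the mean ± SD of 2 libraries. MIR137HG is lower in wogonin, MIR4435-1HG, LINC00152 and MIR22HG are higher, and the other hosts were not called.

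XIST and its activator JPX lie 91571 bases apart on the X chromosome. XIST had the most reads of all members, with 267 and 163 CPM in wogonin 3 and 4, against 196 and 186 CPM in DMSO 1 and 2. The wogonin libraries lay on either side of the DMSO libraries, and the log2 fold change was 0.17 (SE 0.34, edgeR adjusted p = 0.71). Without wogonin 3 it was -0.22 (edgeR adjusted p = 0.017) and without wogonin 4 it was 0.48 (edgeR adjusted p = 7.3e-08), so a single library sets its sign. XIST intron reads were 365 and 176 in wogonin, against 87 and 106 in DMSO, and rose (log2 fold change 1.13, edgeR adjusted p = 0.0071). The highest of these counts is that of wogonin 3, the library with the raised intron share, without which XIST intron reads still rose (log2 fold change 0.87, edgeR adjusted p = 4.2e-06). The call was lost without DMSO 1 (edgeR adjusted p = 0.25) and without DMSO 2 (edgeR adjusted p = 0.13). JPX had 73.3 and 80.3 CPM in wogonin, against 52.6 and 61.4 CPM in DMSO, a rise of 0.43 (edgeR adjusted p = 4.8e-04). In uniquely placed reads, 23.5% of its total, JPX was not called (log2 fold change 0.18, edgeR adjusted p = 0.28).

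Both directions occurred among the other members with most reads. RP11-220I1.1 (chromosome 9) had 78.3 and 89.8 CPM in wogonin, against 67.4 and 61.3 CPM in DMSO, and rose by 0.39. EPB41L4A-AS1, a small snoRNA host, had 77.1 and 79.5 CPM in wogonin, against 68.8 and 68.8 CPM in DMSO. Its rise of 0.19 passed narrowly (edgeR adjusted p = 0.036) and was not called under 11 of 14 other settings. LINC00662, reported in several tumour types, had 33.6 and 44.3 CPM in wogonin, against 54.0 and 56.5 CPM in DMSO, and fell by 0.50 on the log2 scale. AC093323.3 rose by 0.76, AC138035.2 fell by 0.46, and RP11-384K6.6 was not called at 0.09. AC138035.2 had 3.41% of reads at a single place and was not called in those reads.

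RP11-3P17.5 had the highest level per length, a mean of 1088 TPM, and none of its reads had a single place. It had 63.8 and 103 CPM in wogonin, against 41.7 and 59.8 CPM in DMSO. The groups did not overlap, but the log2 fold change of 0.71 had an SE of 0.41 and edgeR's adjusted p was 0.26. Under limma-voom, where the adjusted p was 0.010, it was called, and under DESeq2 it was not (adjusted p = 0.15). LINC01139, known as LINK-A, a cytoplasmic RNA that promotes kinase signalling in breast cancer cells, had 16.8 and 18.9 CPM in wogonin, against 46.6 and 48.6 CPM in DMSO. It fell by 1.42 on the log2 scale (edgeR adjusted p = 7.1e-09). LINC00493, now annotated as SMIM26, a gene for a small mitochondrial protein, had 18.5 and 18.6 CPM in wogonin, against 17.8 and 16.9 CPM in DMSO, and was not called (edgeR adjusted p = 0.49).

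Many members lie beside protein-coding genes, in the coordinates of the tables. A protein-coding gene overlapped 23 members, 15 on the opposite strand and 8 on the same strand, and 49 members lay within 5000 bases of one or overlapped it. The nearest protein-coding gene was tested for 87 members. In 41 pairs both were called, and 28 of these, 68.3%, moved the same way, 18 lower and 10 higher. Over tested genes that are no members, each with its nearest other protein-coding gene, the share was 56.5% of 4173 pairs, and the difference was not tested. Among the 15 such pairs within 5000 bases, 9 moved the same way, a share of 60%, against 56.4% of 2895 such pairs of other genes. Members that share a nearest gene are not independent, as the 87 members with a tested neighbour include pairs at 1 locus.

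Members that start back to back with a coding gene were set beside it. Over all genes tested, 32.3% rose and 31.5% fell. Of the 15 members that run away from a protein-coding gene within 5000 bases without overlapping it, 2 rose, 7 fell and 6 were not called. Of the 14 coding partners tested, 8 rose, 0 fell and 6 were not called by the same edgeR test, and 0 had an unadjusted p under 0.05 in the falling direction. DESeq2 called the same number, 8 rises and 0 falls. Both were called in 4 pairs, of which 1 moved the same way and 3 in opposite ways. The pair that rose together was SRP14-AS1 with SRP14, 123 bases apart, the gene with 230 and 209 CPM in wogonin, against 174 and 173 CPM in DMSO (log2 fold change 0.34). Members that overlap a coding gene head to head were counted apart. Of these 9 members 3 rose and 3 fell, and of their 9 coding partners 3 rose, 2 fell and 4 were not called. The absence of falling partners thus holds only for the pairs without overlap, as they were cut here. Among 23 members whose start lies within 1000 bases of a coding start on the opposite strand, 11 partners rose, 2 fell and 10 were not called.

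RP11-110I1.12, now CENATAC-DT, had 4.10 and 3.50 CPM in wogonin, against 10.2 and 11.8 CPM in DMSO, a fall of 1.53. Its partner CCDC84, 138 bases away and known as CENATAC, a factor of the minor spliceosome, had 32.2 and 27.3 CPM in wogonin, against 19.4 and 18.3 CPM in DMSO, a rise of 0.66 (edgeR adjusted p = 1e-04). CTD-2037K23.2, now SCAMP1-AS1, had 10.3 and 8.75 CPM in wogonin, against 16.6 and 17.4 CPM in DMSO, a fall of 0.84. SCAMP1, a secretory carrier membrane protein gene 8 bases away, had 116 and 107 CPM in wogonin, against 94.6 and 86.5 CPM in DMSO, a rise of 0.30. RP11-111M22.3 and its partner C11orf30, now EMSY, were the third opposite pair, at -0.59 and 0.39. At the most changed divergent member, CTA-217C2.1, the partner NUP50 had 186 and 186 CPM in wogonin, against 169 and 176 CPM in DMSO, and was not called (log2 fold change 0.11, edgeR adjusted p = 0.11). The reverse was seen at FLVCR1-AS1, at -0.01, whose heme exporter partner FLVCR1 rose by 1.41.

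**Figure D4:**
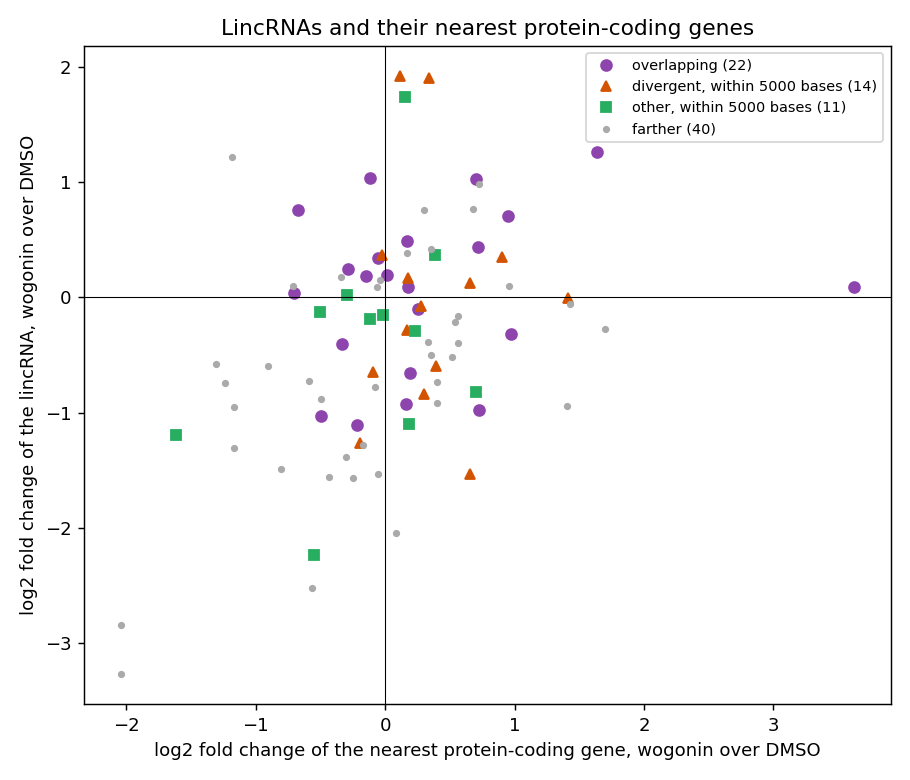
Log2 fold change, wogonin over DMSO, of 87 lincRNAs (vertical axis) and of their nearest protein-coding gene (horizontal axis). Symbols mark overlapping pairs, divergent pairs within 5000 bases, other pairs within 5000 bases and farther pairs. The 14 divergent pairs, which do not overlap, spread along the vertical axis, from 1.92 at CTA-217C2.1 to -1.53 at RP11-110I1.12. None of the coding partners in these 14 pairs was called lower.

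Of the pairs that overlap or lie within 5000 bases with both genes called, 6 are given next, ranked by the smaller of the 2 absolute log2 fold changes in a pair. RP1-249H1.4, now MROCKI, a transcript beside the gene of the actin-linked kinase substrate MARCKS, had 3.36 and 4.42 CPM in wogonin, against 8.89 and 8.88 CPM in DMSO, a fall of 1.19. MARCKS, 4530 bases away, had 102 and 125 CPM in wogonin, against 343 and 353 CPM in DMSO, a fall of 1.61. On chromosome 4, RP11-807H7.1, which overlaps EPHA5 on the opposite strand, had 43.4 and 47.9 CPM in wogonin, against 98.0 and 81.5 CPM in DMSO. It fell by 0.97 while EPHA5, an ephrin receptor, rose by 0.73, with 607 and 622 CPM in wogonin against 376 and 367 CPM in DMSO. RP11-807H7.2, which begins 4173 bases beyond RP11-807H7.1, had 8.85 and 9.58 CPM in wogonin, against 4.24 and 5.05 CPM in DMSO, and rose by 0.99. Of the remaining pairs, AC092171.4 with FBXL18 (1.03 and 0.70), RP11-159D12.2 with RP11-159D12.5 (1.26 and 1.64) and MIR22HG with WDR81 rose together, and IQCH-AS1 rose by 0.76 where C15orf61 fell by 0.67, although IQCH-AS1 was at -0.00 and not called in unique reads. These 4 pairs overlap, and their reads cannot be told apart without the strand.

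Members also lay near each other. RP11-348J24.2 and RP11-133F8.2 overlap on opposite strands of chromosome 5 and fell by 1.57 and 1.28. RP11-536O18.1 and RP11-536O18.2 lie 13438 bases apart on chromosome 9 and fell by 1.31 and 0.95, and MPDZ, their nearest protein-coding gene, fell by 1.17. AF241725.6 and AP000475.2 lie 60644 bases apart on chromosome 21 and fell by 0.74 and 0.91, while their nearest gene NCAM2, a neural adhesion molecule, rose by 0.40. LINC00662 and CTC-459F4.3 overlap on chromosome 19 on opposite strands and moved in opposite ways, by -0.50 and 0.42. Distance from coding genes was also counted. Of 24 members more than 100000 bases from any protein-coding gene, 7 rose and 15 fell, with a median log2 fold change of -0.73. Of the 83 nearer members, 19 rose and 31 fell, with a median of -0.08, and the difference between these sets was not tested. Over all genes tested, 32.3% rose and 31.5% fell. Genes outside the list in the range of reads given above had 20.4% higher and 39.8% lower.

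The kind of read bears on several members. Uniquely placed reads were 60.3 and 61.1% of member reads in wogonin 3 and 4, against 64.7 and 64.8% in DMSO 1 and 2. Under 50% of reads were unique in 31 members, of which 9 rose and 9 fell, with a median log2 fold change of 0.06. In the other 76, 17 rose and 37 fell, with a median of -0.25. The shares over all genes tested in total exon reads were 32.3% higher and 31.5% lower. Genes outside the list in the range of reads given above had 20.4% higher and 39.8% lower in total exon reads. In a fit of unique exon reads alone, 91 members were tested, 18 rose and 40 fell, against 32.2 and 32.4% of all genes in that fit. Shares among genes with similar reads were not computed for unique reads. Of the 65 members called in total reads and tested in unique reads, 63 kept their sign and 57 were called in both.

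Reads across splice junctions were few. They were a median of 17.1% of a member's exon reads, against 43.5% for protein-coding genes, and 25 members, 23.4%, were under 5%, against 6.32% of protein-coding genes. Reads in introns were a median of 20% of a member's gene reads, against 4.85% for protein-coding genes, and 19 members had more intron than exon reads. Among the 25 members under 5%, 9 rose and 8 fell, and among the 82 others 17 rose and 38 fell. These counts stand beside 32.3% higher and 31.5% lower over all genes tested. In genes outside the list in the range of reads given above, the shares were 20.4 and 39.8%.

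Intron reads were fitted apart with their own scaling. Of 80 members tested, 7 rose and 24 fell (8.75 and 30.0%), and the 38.8% called stood against 20.1% of all 10495 genes, of which 11.3% rose and 8.81% fell. The members' median log2 fold change was -0.44, against 0.05 over all genes. Members were chosen by exon reads of these same libraries. Fewer than 100 summed exon reads were found in wogonin in 24 members and in DMSO in 5. The intron shares are thus not like for like, and shares among genes with similar reads were not computed. Of the 24 members that fell in introns, 19 fell in exons, 3 rose and 2 were not called. Of the 7 that rose in introns, 5 rose in exons, 1 fell and 1 was not called. Wogonin 3 had the highest intron share of all libraries, and without it 14 members rose and 29 fell, with a median of -0.32. Without wogonin 4, 13 rose and 34 fell, with a median of -0.63. Without DMSO 1, and likewise without DMSO 2, 0 members rose and 9 fell by edgeR (5 and 6 rises at an unadjusted p under 0.05), and with the totals of exon reads as the scale 4 rose and 6 fell, with a median of -0.09. Shares over all genes were not computed for these other fits. Among single members, RP3-332B22.1 was at -3.59, RP11-248N22.1 at -4.09 and RP11-110I1.12 at -1.99 in intron reads of the main fit. CTA-217C2.1 and SRP14-AS1 rose by 0.90 and 1.04 in that fit.

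Exon and intron reads differed most in 4 members. RAB30-AS1, the divergent transcript of a small GTPase gene, had 31 and 29 exon reads in wogonin, against 77 and 84 in DMSO, and 322 and 224 intron reads in wogonin, against 149 and 155 in DMSO. Its log2 fold change was -1.26 in exon reads and 0.53 in intron reads, and 0.46 when both were summed (edgeR adjusted p = 0.017), so its direction depends on which reads count. RP11-403I13.8 was at 1.12 in exon and -0.96 in intron reads, LINC00863 at 0.44 and -1.29, and RP11-14N7.2 at 0.76 and -1.10. LINC00839 and LINC00883 also split, at 0.76 and -0.80 and at -0.53 and 1.14. Of all members tested in both, 4 were called in opposite directions, 3 lower in introns and 1 higher. Thus not every split named here was called in both kinds of reads.

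**Figure D5:**
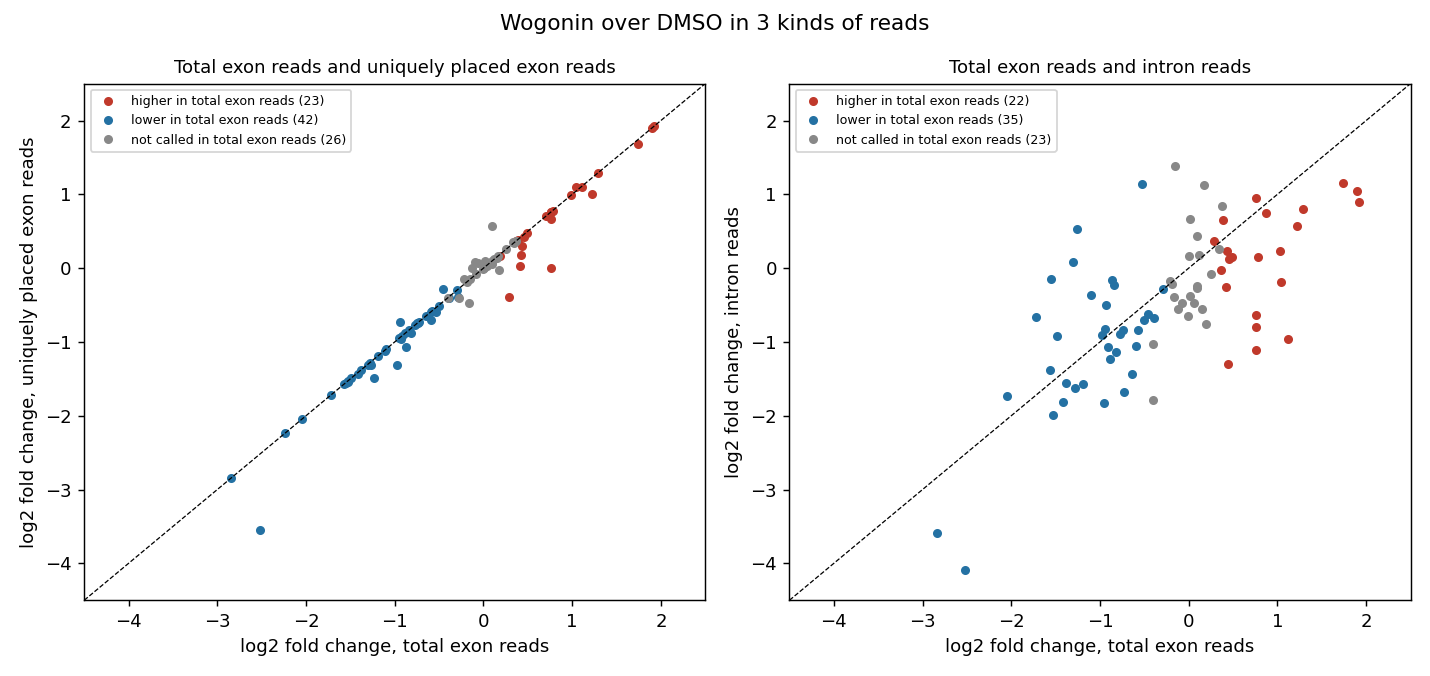
Log2 fold change, wogonin over DMSO, in total exon reads (horizontal axes) against uniquely placed exon reads (left panel, 91 lincRNAs) and intron reads (right panel, 80 lincRNAs). The dashed line marks equal values, and colours show the calls in total exon reads. Points lie close to the line on the left and scatter around it on the right, where 61 of 80 keep their sign.

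Coding genes that act on such transcripts were described as 4 lists, to be read against the 32.3% of all genes tested that rose and the 31.5% that fell. Of 20 genes of the nuclear exosome and its adaptors, which degrade many lincRNAs, 4 rose, 6 fell and 10 were not called by edgeR, with a median log2 fold change of -0.07. The largest fall was ZCCHC8, the scaffold of the nuclear exosome targeting complex, with 35.8 and 41.6 CPM in wogonin, against 110 and 120 CPM in DMSO (log2 fold change -1.57, edgeR adjusted p = 3.2e-10). ZFC3H1, which links the exosome to polyadenylated RNA, rose by 0.87, SKIV2L2, the exosome helicase, fell by 0.53, and PAPD7 rose by 0.42. Of 10 nonsense-mediated decay genes, 5 rose, among them SMG5 at 0.50, 1 fell (UPF3B, by 0.48) and 4 were not called.

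Of 9 microRNA processing genes in the tables, 6 rose and 3 fell. DICER1, the enzyme that cuts precursors, rose by 0.71, XPO5, their exporter, by 0.56 and AGO3 by 1.10, while AGO4 fell by 1.33, TARBP2 by 0.74 and AGO1 by 0.50. Among partner proteins of the lincRNA NORAD, PUM2 rose by 0.42, RBMX fell by 0.83 and KHDRBS1 fell by 0.38. Each list holds few genes, and no measure here links them to single lincRNAs.

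The promoters of 61 members were found in RefSeq by symbol or ID. Their windows held a median of 22 CpG sites and 60.7% G and C, against 14 and 58.7% over all 35116 windows of the same length. The GC box GGGCGG, searched on both strands, was in 50.8% of the members' windows, against 45.0% of all. The E-box CACGTG, its own reverse complement, was in 8.20%, against 7.26%, and CCAAT, on both strands, in 37.7%, against 34.6%. Of the 35 members with 20 or more CpG sites, 8 rose and 14 fell. Of the 19 members with fewer than 10, 4 rose and 9 fell, and of the 7 between, 1 rose and 4 fell. The shares over all genes tested were 32.3% higher and 31.5% lower. Among genes outside the list in the range of reads given above, they were 20.4 and 39.8%. No methylation was measured in these libraries, and matches of letters are a description of the sequence alone.

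The label was set beside a later annotation by gene ID. GENCODE v29 calls 77 of the members lincRNA, of which 15 rose and 40 fell, lists 4 as protein-coding and 9 as transcribed pseudogenes, and does not list 11. Beside the split of the 77 stand 32.3% higher and 31.5% lower over all genes tested. For genes outside the list in the range of reads given above, the shares were 20.4 and 39.8%. The protein-coding entries are LINC00493, C11orf95, FAM83H-AS1 and AC093323.3. C11orf95, now ZFTA, a zinc finger gene, had 28.7 and 29.1 CPM in wogonin, against 39.1 and 31.9 CPM in DMSO, and fell by 0.30. The pseudogenes include AL589743.1 and CTD-2314B22.3, now DUXAP9 and DUXAP10, which are similar copies on chromosome 14 and rose by 0.29 and 0.46. In unique reads AL589743.1, with 4.56% of reads at a single place, was at -0.39, so its direction is uncertain. In all, 73 members carry a different name in the current tables, and RP11-304L19.5 and RP11-1094M14.11 are now SNHG19 and SNHG30. Both were not called, at 0.35 and -0.15.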

How the data were processed

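RNA from A2780 cells was sequenced in 2 wogonin and 2 DMSO libraries, and the authors deposited 1 table per library. Per the file headers, each gene has read counts for exons, introns and junctions, with the uniquely placed reads apart. The authors also deposited TPM and RPKM values, and a fraction that divides unique by total reads. TPM described levels, and the others served to check the tables. Builds named in the submitters' processing notes are GRCh 37 and hg 19. How reads were aligned, counted and assigned to strands is not given in the sources used here.

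Total exon counts of all genes, as deposited, went into the 2-sided quasi-likelihood test of edgeR 4.0.16 (R 4.3.3), with treatment as the only term, robust dispersion, its own expression filter, TMM scaling and Benjamini-Hochberg adjustment over all genes tested at a threshold of 0.05. Intron counts had a fit of their own. No 2 libraries were copies: chi-square divided by degrees of freedom came to 6.77 between the wogonin libraries, 2.86 between the DMSO libraries and 51.7 to 56.0 across groups. Depth was 11005921 to 11839562 exon reads, where 3 counts are worth 0.253 to 0.273 CPM.

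The members and gene lists were chosen with earlier results of these data known. Genes named are the 10 members with most reads, the 10 largest rises and falls without overlap, members of the lists and up to 4 coding genes of each, the 3 members at either side of the minimum, 6 neighbour pairs and 4 members whose exon and intron changes differ most. Other members (hosts of microRNAs, divergent and clustered pairs, re-annotated genes and LINC01139, LINC00839 and LINC00883) were named after their values were seen. One coding gene of a list is not reported here. Of the lists of lincRNAs by role, those of stress and of imprinted genes held 0 members.

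The nearest protein-coding gene was taken by the smallest gap in the tables' coordinates. Sequences are from RefSeq, GRCh38.p14, matched by gene ID or symbol. Later types are from GENCODE v29 and current names from a separate list of gene symbols, both matched by gene ID. No coordinate was converted between builds. Simulated counts with known changes were used to check the test. Alternatives were DESeq2 1.42.0, limma-voom (limma 3.58.1), other scalings, filters and minimums, the other count columns, and leaving out each library in turn.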

Additional observations from a re-analysis of the deposited data

How the results depend on the processing

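The counts of members called, higher and lower (72, 26 and 46) stayed within 1.5 times under other scalings, other filters, limma-voom, the other count columns and without each library, where called members ran from 60 to 69, rises from 19 to 26, falls from 38 to 43 and the median log2 fold change from -0.26 to -0.11. DESeq2 gave 17 rises. Shares over all genes were computed for the main exon and intron fits and for unique exon reads, and not for the other settings. A minimum of 400 summed reads left 59 members, with 41 called, 21 lower and a median of 0.055, and 100 reads in each group left 78, with 47 called, 25 lower and a median of 0.0296. A minimum of 100 summed reads gave 172 members, with 109 called and 76 lower. A size of 1 log2 unit left 30 called, 9 higher and 21 lower. These limits change which members enter, by construction. For intron reads, scaling by totals of exon reads gave 4 higher, 6 lower and a median of -0.0911, and without each library rises ran from 0 to 14, falls from 9 to 34 and the median from -0.63 to -0.32. The cause was not tested. RP11-3P17.5 was called under limma-voom alone (adjusted p = 0.010).

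Of 38 members named by rule, 27 kept direction and side in every alternative that tested them and 11 did not. Signs turned for XIST (-0.0216 in unique exon reads, -0.22 without wogonin replicate 3, against 0.48 without wogonin replicate 4), RP11-384K6.6 (-0.00054 with library totals, -0.00040 with upper-quartile scaling), IQCH-AS1 (-0.0023 in unique exon reads), RP11-14N7.2 (-0.0735 in unique gene reads) and RAB30-AS1 (0.46 in total and 0.49 in unique gene reads). The members' median was -0.24 with library totals and with upper-quartile scaling, where the median of all genes tested was -0.09 in both. The members' median SE of 0.18 was above the 0.10 of all genes, so changes near that size were mostly below what could be called. No paired analysis was made because the labels state no pairing between wogonin libraries 3 and 4 and DMSO libraries 1 and 2.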
